A study of Mus musculus with 6 samples.

Results

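The 10 genes examined here mark the alveolar type 2 cell, the epithelial cell that makes pulmonary surfactant, and were read in whole lungs of mice kept in hypoxia for 7 days. They were the surfactant proteins Sftpa1, Sftpb, Sftpc and Sftpd, the lipid transporter Abca3, the protease Napsa, the lysosomal membrane protein Lamp3, the phosphate transporter Slc34a2, the transcription factor Nkx2-1 and the chemokine Cxcl15. Members were the probe sets whose platform gene symbol was one of these names, and all 10 were found, each with 1 probe set, among 24704 named genes on the arrays. The control group held 3 lungs from Nfat5fl/fl mice, which carried floxed Nfat5 alleles and received the oil miglyol. The knockout group held 3 lungs from Nfat5(EC)-/- mice, in which tamoxifen at 1 mg per day for 5 days had removed Nfat5, an osmosensitive transcription factor, from endothelial cells (EC). All animals were males or females of 10 to 12 weeks when dosed, rested for 2 to 3 weeks and were then kept in hypoxia, so no array measured a lung in normal air. The series' design names 4 mice per group and says that lungs with contaminating tissue or a weak expression response to hypoxia were left out. The arrays were thus selected in part on expression. Deletion and tamoxifen came together and cannot be told apart in these groups. The sources used here give neither the promoter that drives the recombinase nor the sex of each animal. Nothing in the labels says that an array pooled animals.

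Surfactant is a film of phospholipid and a few proteins that lowers surface tension at the air-liquid boundary and keeps alveoli open. SFTPB and SFTPC are small hydrophobic proteins that spread the lipid film, while SFTPA1 and SFTPD are collectins, soluble lectins of innate defence. Type 2 cells store lipid and hydrophobic proteins in lamellar bodies, which ABCA3 fills with phospholipid and which carry LAMP3 in their membrane. Endothelial cells, at which the deletion was directed, do not make surfactant. Whole lung was read, so the values of the 10 genes are not shown to come from type 2 cells alone.

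All 10 genes were bright on these arrays, with mean levels between the 91.6th percentile (Nkx2-1) and the very top (Sftpb and Sftpc) of all genes. Values are log2 expression from RMA, an array summary method. The deposited arrays stood at nearly common quantiles, with a lower quartile of 2.02 and a maximum of 13.01 on each array. Which step of the processing made them so was not examined. Nfat5 itself had log2 values of 6.65, 6.58 and 6.30 in the control lungs and 4.46, 4.48 and 3.89 in the knockout lungs (control and knockout replicates 1, 3 and 4, the order used throughout). It changed by −2.23 ± 0.23 on the log2 scale (SE; limma, adjusted p = 0.00151), but whether its probes lie in the deleted part is not known here. Xist, an RNA made in female cells, was at 8.22 on control replicate 1 and between 2.03 and 2.37 on the other arrays. By this RNA control replicate 1 reads as a female lung and the other arrays as male, though sex was not given per animal. Control replicate 1 also stood apart in the mean log2 level of 10 thymus genes, at 2.93. The mean was 2.37 and 2.46 on the other control arrays and 2.41 to 2.60 in knockouts. Rag1, a recombinase of developing lymphocytes, was at 3.53 there against 1.97 and 1.66 on the other controls (named after its values were seen). Of the 10 thymus genes all but Foxn1 and Ptcra were highest there among the controls. Foxn1 was at 2.17 there against 2.27 and 2.68, and Ptcra at 2.92 against 2.87 and 3.13. Without control replicate 1, 3141 genes passed the test described below in place of 6292, and 3 of the 10 genes in place of 4. The part of thymus RNA in the results was not tested. Over all genes the spread between knockout lungs exceeded that between controls at 67.0% of genes.

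Among the 10 genes, 3 were lower in the knockout lungs, 1 was higher and 6 did not pass an adjusted p of 0.05 (limma, Benjamini-Hochberg over all genes). Cxcl15, Sftpa1 and Lamp3 fell and Napsa rose, each more than 2-fold. The 4 calls have to be read against a comparison in which 25.5% of all genes passed, 13.0% lower and 12.5% higher. In a fit limited to genes above the median level, where all 10 belong, 46.9% passed, and the 10 genes therefore did not change more often than bright genes in general. The knockout and control values did not overlap at 6 of the 10, against 41.9% of all genes. Of these, 2 were higher (21.9% of all genes) and 4 lower (20.0%). The share without overlap was not computed for bright genes alone, so 6 of 10 cannot be read as an excess. The median log2 fold change of the 10 was −0.36, beside 0.04 over all genes tested. In whole lung, fewer type 2 cells and less RNA per cell cannot be told apart, and nothing in the labels says whether lungs came from separate litters or runs.

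**Figure D1:**
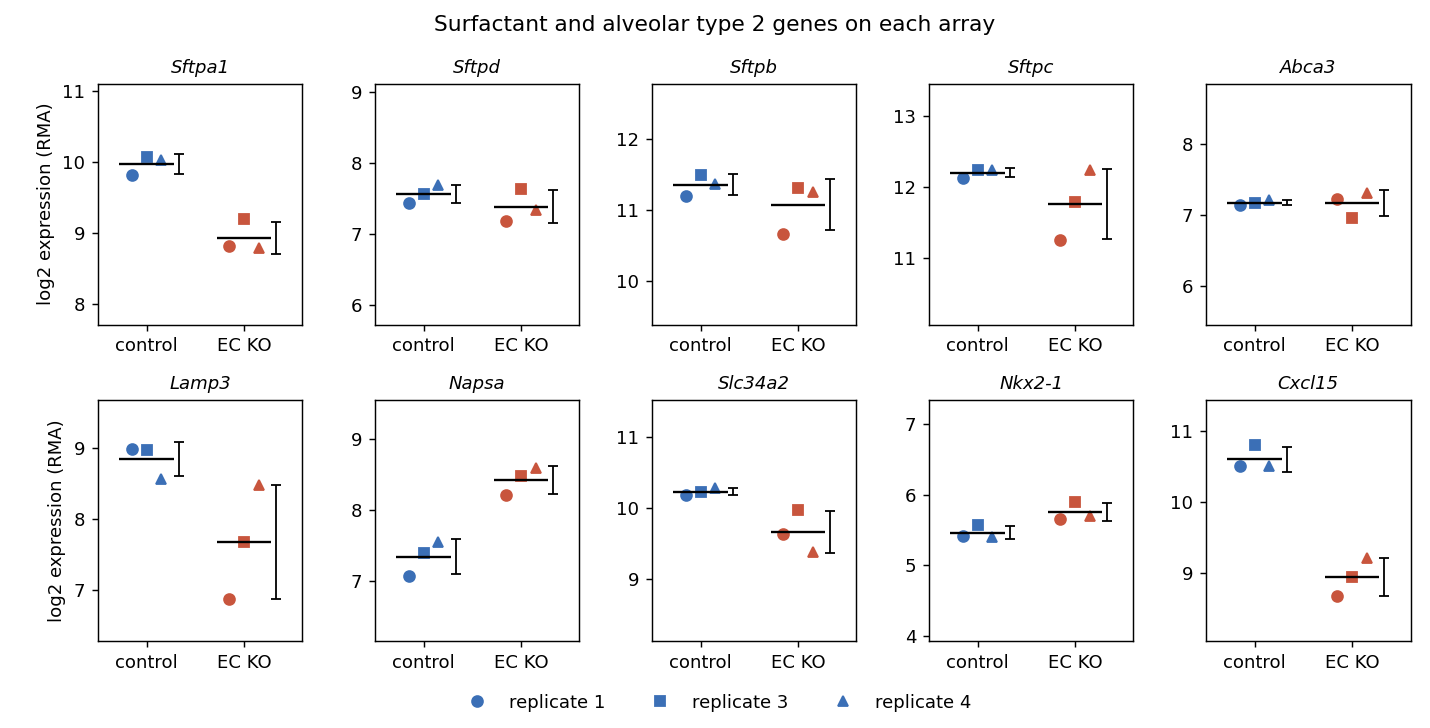
Log2 expression (vertical axis, RMA, with the same span in every panel) of the 10 genes in 3 control and 3 EC knockout lungs, with the group mean as a line, the SD as a bar and a marker shape for each replicate number. All 3 knockout lungs lie below all controls for Sftpa1, Lamp3, Slc34a2 and Cxcl15 and above them for Napsa and Nkx2-1, and the groups overlap for Sftpb, Sftpc, Sftpd and Abca3.

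Of the surfactant collectins, Sftpa1 fell and Sftpd did not pass. Sftpa1 (Entrez gene 20387), the most abundant surfactant collectin, had log2 values of 9.82, 10.08 and 10.03 in control lungs and 8.81, 9.19 and 8.79 in knockout lungs. Every knockout lung lay below every control. The knockout mean was 2.06-fold lower, with a log2 fold change of −1.04 ± 0.20 (SE; limma, adjusted p = 0.00707), and the call held with each array left out (−1.17 to −0.97). Sftpd (Entrez gene 20390), which also regulates surfactant pool size, had log2 values of 7.44, 7.57 and 7.69 in controls and 7.19, 7.65 and 7.34 in knockouts. The groups overlapped, because knockout replicate 3 lay among the controls. The difference of −0.18 ± 0.20 on the log2 scale did not pass (SE; limma, adjusted p = 0.573), with a 95% interval of −0.63 to 0.27 that leaves room for a modest change in either direction. Its values ran from −0.33 with the length trend removed to −0.077 without knockout replicate 1.

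Sftpa1 and Sftpd are near neighbours on chromosome 14 in the RefSeq annotation, with the collectin Mbl1 and a pseudogene (Gm7920) between them. Within each array the log2 ratio of the Sftpa1 probe set to the Sftpd probe set ran from 2.34 to 2.51 in controls and from 1.45 to 1.62 in knockouts, a change of −0.86. The ratios did not overlap, and the exact two-sided permutation test gave p = 0.1, the smallest value that 3 arrays against 3 allow (0.1 after adjustment over 2 gene pairs, both picked after their values were seen). Only the unequal change of the 2 probe sets can be read from such a ratio. Among the other 5 collectins measured, 1 fell and 0 rose. That gene was the scavenger receptor Colec12, with a log2 fold change of −1.18 ± 0.31 (SE; limma, adjusted p = 0.0242). It did not pass without control replicate 1 (adjusted p = 0.102) or without control replicate 3 (0.0733). Mbl1 stood at −0.33 ± 0.21 (SE; limma, adjusted p = 0.306), with both group means below the arrays' median of 2.97.

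The hydrophobic surfactant proteins did not pass the test. Sftpb (Entrez gene 20388) had log2 values of 11.20, 11.49 and 11.37 in controls and 10.66, 11.30 and 11.25 in knockouts. Knockout replicate 1 was low, and the other knockout lungs lay within the control range. The difference between the group means was −0.28 ± 0.23 on the log2 scale (SE; limma, adjusted p = 0.420; 95% interval −0.80 to 0.23). It was −0.075 without knockout replicate 1 and −0.50 with the trend of fold change on gene length removed, and passed in neither. Sftpc (Entrez gene 20389), the classical type 2 cell marker, had log2 values of 12.13, 12.24 and 12.24 in controls and 11.25, 11.79 and 12.24 in knockouts. Again knockout replicate 1 was lowest, knockout replicate 3 lay between it and the controls, and knockout replicate 4 equalled 2 of the controls. The group means differed by −0.44 ± 0.26 on the log2 scale (SE; limma, adjusted p = 0.254; 95% interval −1.02 to 0.14), and it was −0.19 without knockout replicate 1, −0.68 without knockout replicate 4 and −0.77 with the length trend removed (adjusted p = 0.0510).

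The deposited scale bears on Sftpc in particular. Common quantiles give the gene of a given rank the same value on every array, and Sftpc had rank 3 from the top on control replicates 3 and 4 and on knockout replicate 4, with 12.24 each time. Its rank was 4 on control replicate 1, 6 on knockout replicate 3 and 11 on knockout replicate 1. Sftpb ranked between 8 and 12 in controls and between 10 and 21 in knockouts. At the top of the scale a change in transcript amount that left the rank in place would not appear in these values. The 3 genes with the pattern over the 6 arrays most like that of Sftpc were Fubp3, Zfp976 and D130017N08Rik. Their centred log2 values differed from those of Sftpc by a root mean square of 0.06 to 0.07. None of the 3 passed the test, which follows from their choice by likeness to Sftpc.

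Of the lamellar body genes, Lamp3 fell and Abca3 did not pass. Abca3 (Entrez gene 27410), whose product loads phospholipid into lamellar bodies, had log2 values of 7.15, 7.17 and 7.22 in controls and 7.23, 6.96 and 7.31 in knockouts. The knockout lungs lay on both sides of the narrow control range. The fold change was −0.01 ± 0.19 on the log2 scale (SE; limma, adjusted p = 0.975), with a 95% interval of −0.43 to 0.41, and lay above 0 in 3 of 18 alternative settings, up to 0.28 with the length trend removed (adjusted p = 0.322). Lamp3 (Entrez gene 239739), a lysosomal membrane protein that type 2 cells place on lamellar bodies, had log2 values of 8.98, 8.97 and 8.56 in controls and 6.86, 7.68 and 8.47 in knockouts. All knockout lungs were below all controls, but knockout replicate 4 missed the lowest control by little while knockout replicate 1 was far below. With a knockout SD of 0.80 against 0.24 in controls, Lamp3 was the most variable of the 10 genes among knockout lungs. The knockout mean was 2.25-fold lower, with a log2 fold change of −1.17 ± 0.37 (SE; limma, adjusted p = 0.0450). That call was lost when any array but knockout replicate 4 was left out. It became −1.10 (adjusted p = 0.142) without control replicate 1, −1.10 (0.143) without control replicate 3, −1.31 (0.0732) without control replicate 4, −0.77 (0.0808) without knockout replicate 1 and −1.17 (0.0881) without knockout replicate 3. It was also lost with the replicate number as a block (adjusted p = 0.0604), with Xist as a covariate (−1.10, 0.151) and with the trend in gene length removed (−0.90, 0.0990).

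Napsa (Entrez gene 16541) was the 1 gene of the 10 that rose. It encodes napsin A, the aspartic protease that takes part in trimming the SFTPB precursor. Its log2 values were 7.08, 7.40 and 7.56 in controls and 8.21, 8.48 and 8.59 in knockouts. Every knockout lung exceeded every control, and the mean was 2.12-fold higher, a log2 fold change of 1.09 ± 0.21 (SE; limma, adjusted p = 0.00719). The call held with each array left out, between 0.95 and 1.20. Within arrays, the log2 ratio of the Napsa probe set to the Sftpb probe set rose from a control range of −4.12 to −3.81 to a knockout range of −2.82 to −2.45, a change of 1.37 (exact two-sided permutation p = 0.1, the smallest possible). The cathepsin Ctsh, another protease of the SFTPB and SFTPC precursors, was at −0.51 ± 0.22 and did not pass (SE; limma, adjusted p = 0.132; named after its values were seen).

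**Figure D2:**
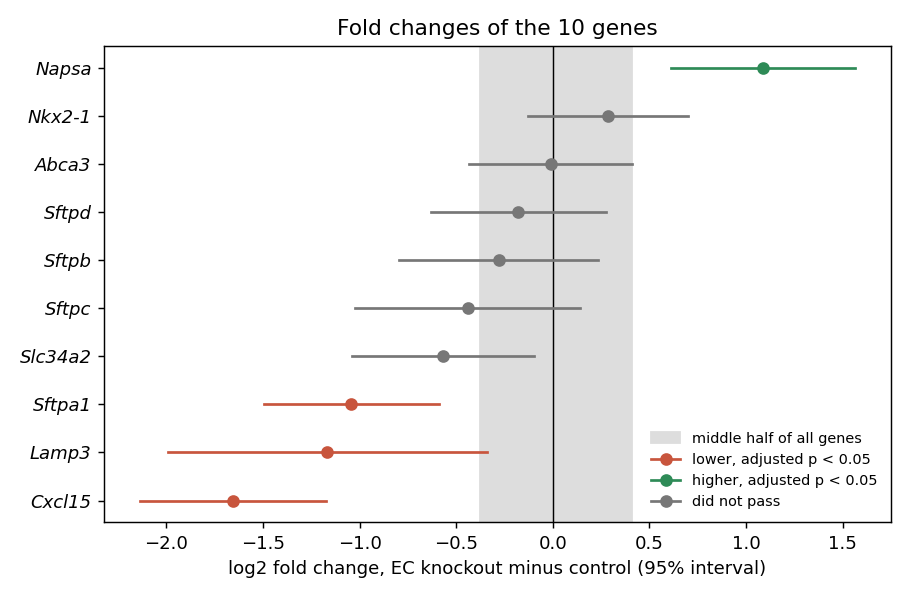
Log2 fold change of each of the 10 genes (EC knockout minus control, n = 3 lungs each) with its 95% interval from limma, not adjusted for the number of genes. The grey band runs from the 25th to the 75th percentile of all genes (−0.38 to 0.41), and Cxcl15 at −1.66 and Napsa at 1.09 stand at opposite ends.

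Slc34a2 (Entrez gene 20531), which takes up phosphate released from surfactant phospholipid, had log2 values of 10.18, 10.22 and 10.28 in controls and 9.63, 9.97 and 9.38 in knockouts. The groups did not overlap, but the difference did not pass, with a log2 fold change of −0.57 ± 0.21 (SE; limma, adjusted p = 0.0761; 95% interval −1.04 to −0.10 before adjustment). Without knockout replicate 3 it passed (−0.72, adjusted p = 0.0379). Nkx2-1 (Entrez gene 21869), the transcription factor that binds the promoters of surfactant genes and defines lung epithelium, had log2 values of 5.42, 5.57 and 5.40 in controls and 5.65, 5.89 and 5.70 in knockouts. All knockout lungs lay slightly above all controls. Its log2 fold change of 0.28 ± 0.18 did not pass (SE; limma, adjusted p = 0.30; 95% interval −0.13 to 0.70), and turned to −0.012 with the length trend removed (adjusted p = 0.969).

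Cxcl15 (Entrez gene 20309), also called lungkine, is a neutrophil-attracting chemokine made by lung epithelium in mice. Its log2 values were 10.50, 10.80 and 10.50 in controls and 8.67, 8.95 and 9.21 in knockouts. The gap between the groups was wider than the range within either. The knockout mean was 3.15-fold lower, with a log2 fold change of −1.66 ± 0.21 (SE; limma, adjusted p = 0.00223), the smallest p of the 10 genes. Counting Cxcl15, 480 genes (1.94%) had a fold change at least this low. The call held with each array left out (−1.79 to −1.52) and in all 18 alternative settings, some of which could hardly change it. The genes with the pattern over the 6 arrays most like that of Cxcl15 were Kdm5a, Fam126b and Ilf2, at a root mean square difference of 0.09 to 0.10.

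The 10 genes did not all shift in the same direction on any array. Of the 10, 7 lay below all controls on knockout replicate 1, 6 on knockout replicate 3 and 5 on knockout replicate 4. Above all controls lay 3, 2 and 3 on the same arrays. Knockout replicate 1 was the lowest of the knockout lungs for 7 of the 10, knockout replicate 4 for 2 and knockout replicate 3 for 1. The median deviation from the control mean over the 10 genes was −0.64 on knockout replicate 1, −0.24 on knockout replicate 3 and −0.17 on knockout replicate 4, against −0.09 to 0.08 on the control arrays. The SD between lungs was larger in knockouts than in controls for 9 of the 10 genes, all but Napsa. Their median SD was 0.13 in controls and 0.25 in knockouts, where the median over all genes was 0.20 and 0.30.

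**Figure D3:**
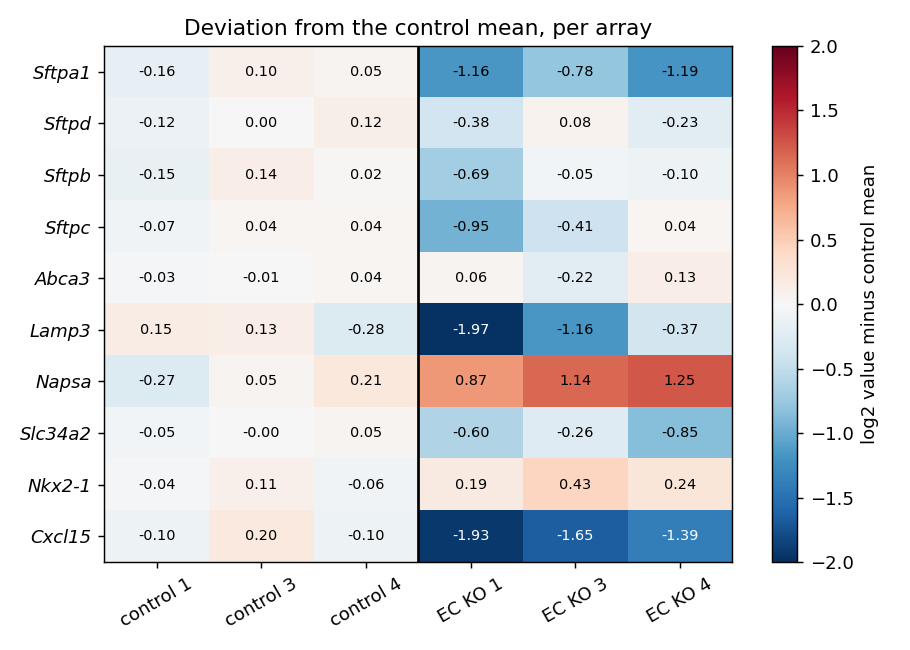
Log2 value of each gene on each array minus the mean of the 3 control arrays, with the number printed in each cell and colour from −2 (blue) to 2 (red). Sftpa1 and Cxcl15 are low and Napsa is high on all 3 knockout arrays, while Lamp3 runs from −1.97 on knockout replicate 1 to −0.37 on knockout replicate 4.

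The bases before the start of the genes were examined for NKX2-1 and NFAT letters. RefSeq promoter sequences of build GRCm38.p6 matched 7 of the 10 genes, and the 250 bases before the start were searched on both strands. The NKX2-1 core was searched in a first form, CTCAAG, which was present in 2 of the 7 promoters and in 13.6% of 27025 promoters of all genes. A second form of that core, CAAGTG, can overlap the first and was present in 1 of the 7 and in 11.6% of all. The core shared by NFAT5 and other NFAT factors, TGGAAA, was present in 1 of the 7 and in 18.7% of all. The sequences below belong to the 3 genes that fell and to Sftpb, a gene that did not pass and holds CTCAAG at 2 places. They run 5′ to 3′ on the strand of the gene and end at the base before the start, with matches in capitals.
Sftpa1 (chr14:41131538-41131787, plus strand): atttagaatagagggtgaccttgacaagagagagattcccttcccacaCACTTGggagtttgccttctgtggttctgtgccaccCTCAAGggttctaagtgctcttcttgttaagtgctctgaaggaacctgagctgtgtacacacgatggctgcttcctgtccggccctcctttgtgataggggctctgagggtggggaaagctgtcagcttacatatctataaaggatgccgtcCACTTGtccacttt
Sftpb (chr6:72304360-72304609, plus strand): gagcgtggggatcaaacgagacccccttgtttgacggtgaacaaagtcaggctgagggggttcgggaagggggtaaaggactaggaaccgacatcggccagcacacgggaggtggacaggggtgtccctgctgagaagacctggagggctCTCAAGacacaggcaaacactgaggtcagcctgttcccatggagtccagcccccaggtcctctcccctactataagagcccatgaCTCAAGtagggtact
Lamp3 (chr16:19706366-19706615, minus strand): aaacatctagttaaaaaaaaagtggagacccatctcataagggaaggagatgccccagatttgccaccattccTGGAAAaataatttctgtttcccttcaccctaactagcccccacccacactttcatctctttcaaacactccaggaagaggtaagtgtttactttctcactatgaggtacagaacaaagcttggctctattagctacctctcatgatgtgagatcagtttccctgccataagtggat
Cxcl15 (chr5:90794284-90794533, plus strand): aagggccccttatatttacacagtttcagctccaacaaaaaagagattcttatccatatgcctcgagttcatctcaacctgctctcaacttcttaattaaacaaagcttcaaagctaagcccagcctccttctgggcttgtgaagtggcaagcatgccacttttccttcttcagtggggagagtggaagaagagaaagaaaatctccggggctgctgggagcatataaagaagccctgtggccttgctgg
Sftpa1 held CTCAAG 166 bases before the start and CACTTG, the reverse complement of CAAGTG, 202 and 14 bases before it. Sftpb held CTCAAG 100 and 15 bases before the start. Lamp3 held TGGAAA 177 bases before the start, and Cxcl15 held none of the 3 words in this window. Genes with NKX2-1 letters were thus found both among those that fell and among those that did not pass, and a match in so short a window is a description only.

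Of 15 other markers of type 2 cells that were measured, 6 fell, 1 rose and 8 did not pass. The share that passed, 46.7%, was near the 46.9% of genes above the median level (25.5% of all genes). Here and below, list shares come from the fit over all genes and the 46.9% from the separate fit limited to brighter genes. The adjustment differs between these fits, so the shares compare only roughly. The median log2 change of the 15 markers was −0.63, beside 0.04 over all genes. Complement component Hc stood at −2.69 ± 0.55, the iron-binding lipocalin Lcn2 at −2.04 ± 0.21, the autophagy regulator Dram1 at −1.26 ± 0.31 and the alarmin Il33 at −0.99 ± 0.24 (SE; limma, adjusted p = 0.00872, 0.00158, 0.0189 and 0.0163). Lcn2 and Hc kept their calls with each array left out, whereas Dram1 and Il33 lost theirs without control replicate 1 (adjusted p = 0.0704 and 0.0567), 3 (0.0757 and 0.0682) or 4 (0.0503 and 0.0532). With Xist as a covariate Hc (−2.50, adjusted p = 0.05155), Dram1 (0.0802) and Il33 (0.0613) did not pass. Only 2 of the 15 passed without control replicate 1, 3 or 4. Hc and Il33 are not made by type 2 cells alone, and several of the 15 markers are found in other lung or immune cells.

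Of 19 transcription factors known to act in type 2 cells or on surfactant genes, 4 rose, 5 fell and 10 did not pass, at a median log2 fold change of −0.20. The 47.4% that passed were again close to the 46.9% of genes above the median level, though not every listed factor lies above that level. Cebpa, needed for type 2 cell maturation, rose by 1.88 ± 0.20, and Foxa2, a partner of NKX2-1 at surfactant promoters, rose by 1.29 ± 0.20 (SE; limma, adjusted p = 0.00163 and 0.00359). Nfatc3, a calcineurin-dependent relative of NFAT5 that acts on surfactant genes, stood at −1.41 ± 0.20, and Nfib, a factor of lung maturation, at −1.86 ± 0.36 (SE; limma, adjusted p = 0.00278 and 0.00717). These 4 calls held with each array left out. The count of factors past the threshold was 5 without control replicate 1.

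Of 20 genes listed under surfactant lipid synthesis, 7 rose, 3 fell and 10 did not pass, at a median log2 fold change of 0.13. The list also holds genes that regulate synthesis or that bind or carry lipid. The 50% that passed were likewise little above the 46.9% of genes above the median level. Srebf1, the lipogenic regulator, rose by 1.58 ± 0.23, fatty acid synthase Fasn by 1.42 ± 0.18 and the sterol sensor Scap by 1.17 ± 0.24 (SE; limma, adjusted p = 0.00276, 0.00219 and 0.00880). Acaca, the carboxylase that supplies Fasn with malonyl-CoA, stood at −1.86 ± 0.39 (SE; limma, adjusted p = 0.00968) and missed the threshold without control replicate 1 (−1.67, adjusted p = 0.05004). With Xist as a covariate neither Acaca (−1.63, adjusted p = 0.0575) nor Scap (1.08, 0.0518) passed. Lpcat1, which remodels the main surfactant lipid, stood at 0.25 ± 0.17 and Pcyt1a, the rate-limiting enzyme of phosphatidylcholine synthesis, at 0.02 ± 0.23, and neither passed (SE; limma, adjusted p = 0.350 and 0.957; both named after their values were seen). Without control replicate 1 the list had 3 genes past the threshold, all higher, and without control replicate 3 it had 4, of which 3 were higher and 1 lower.

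Of 19 genes for processing, lamellar body traffic and secretion, 2 rose, 5 fell and 12 did not pass (36.8% passed), with a median log2 fold change of 8e-04. Snap23, a fusion protein of secretion, stood at −1.58 ± 0.23, the phospholipid flippase Atp8a1 at −1.54 ± 0.29 and the adaptor Ap3b1, mutated in a Hermansky-Pudlak syndrome, at −1.29 ± 0.18, while the secretory GTPase Rab3d rose by 1.01 ± 0.19 (SE; limma, adjusted p = 0.00291, 0.00622, 0.00270 and 0.00683). All 4 calls held with each array left out. Of 9 genes of surfactant clearance by macrophages, 1 rose and 2 fell (33.3% passed). The receptor subunit Csf2rb stood at −0.98 ± 0.24, the macrophage regulator Pparg at −0.84 ± 0.27 and the myeloid factor Spi1 at 0.75 ± 0.18 (SE; limma, adjusted p = 0.0162, 0.0475 and 0.0167). None of the 3 passed without control replicate 1 (adjusted p = 0.0746, 0.172 and 0.0656), and 1 of the 9 genes passed without control replicate 3.

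**Figure D4:**
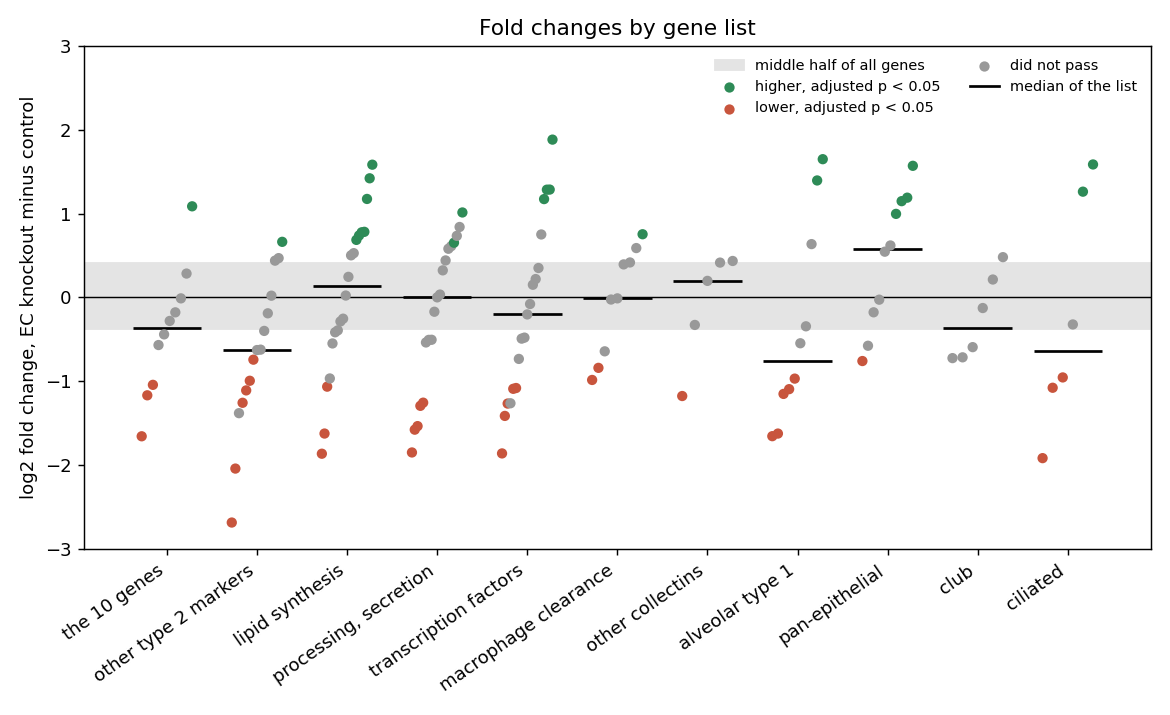
Log2 fold change (EC knockout minus control) of every measured gene of 11 lists, sorted within each list, with the list median as a black line and the 25th to 75th percentile of all genes as a grey band. Points past an adjusted p of 0.05 are coloured, and most lists hold genes on both sides of 0.

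Some markers of other cells also passed the test, and their part in the results was not tested. Mean levels of the club, ciliated and thymus lists overlapped between the groups. The counts are to be read beside the 25.5% of all genes and 46.9% of genes above the median level that passed. Of 10 alveolar type 1 genes 2 rose and 5 fell, with a mean log2 level of 7.97 to 8.23 on control arrays and 7.59 to 7.90 on knockout arrays. Of 10 pan-epithelial genes 4 rose and 1 fell, and their mean level ran from 4.94 to 5.21 in controls and from 5.29 to 5.61 in knockouts. Of 6 club cell genes limma called 0 (7.86 to 8.25 against 7.69 to 8.10), with 3 at an unadjusted p under 0.05, and 1 was called lower without control replicate 1, knockout replicate 3 or knockout replicate 4. Of 6 ciliated genes 2 rose and 3 fell (4.87 to 5.08 against 4.40 to 4.94), but without control replicate 3 the count was 2 higher and 0 lower. Alveolar macrophage genes were lower at 2 of 9 (5.33 to 5.88 against 4.57 to 4.87) and at 4 of 9 without knockout replicate 4. Of 8 endothelial genes 2 rose and 4 fell (7.70 to 7.85 against 7.08 to 7.44). Thymus genes had mean levels below the arrays' median of 2.97 in both groups, with the highest on control replicate 1 (2.93), and 1 of 10 was higher and 1 lower, against 0 of 10 without control replicate 1 or without control replicate 3. For the 10 surfactant and type 2 genes the same mean lay between 8.99 and 9.15 on control arrays and between 8.42 and 8.83 on knockout arrays. Some markers stand in more than 1 list, such as Krt8 and Marco.

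**Figure D5:**
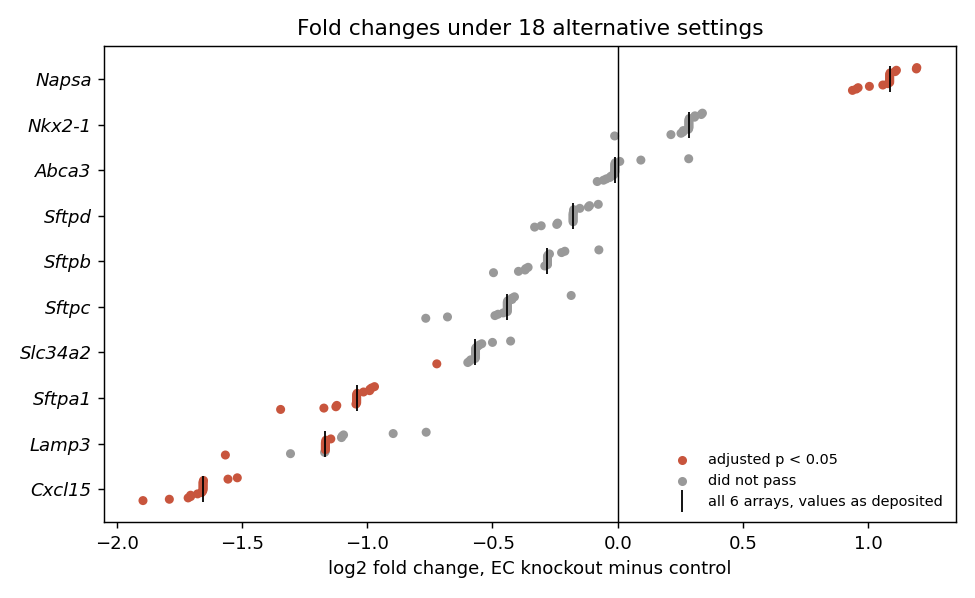
Log2 fold change of each of the 10 genes under 18 alternative settings (points, coloured where the adjusted p was under 0.05) and with all arrays as deposited (vertical mark). Cxcl15, Sftpa1 and Napsa stay past the threshold in all 18, Lamp3 in 10, Slc34a2 in 1 and the others in 0. Some settings could hardly change the values.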

How the data were processed

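The 6 arrays were used as 3 controls and 3 EC knockouts, grouped by their titles. The authors deposited 1 log2 expression value for each probe set and array, made with RMA as the submitters' processing notes name it, and its version and the genome build are unknown here. The platform annotation gave 24705 of the 25428 probe sets a single gene symbol, 723 none and 0 several, and the brighter probe set of a repeated symbol was kept, for 24704 genes. Dim genes were not filtered, and no detection calls were used. The number of arrays limits the precision.

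Groups were compared with limma 3.58.1 (lmFit, eBayes) in R 4.3.3, with Benjamini-Hochberg adjustment over all genes at 0.05; errors are moderated standard errors. The procedure was tested on simulated data. Every member is described, up to 4 genes of smallest p per companion list, and the 3 genes nearest in pattern to Sftpc and to the member of smallest p; a gene named outside this rule is marked as such. Members and lists were chosen with earlier results of these data known. Alternatives left out each array, added a replicate block, filters, scalings, weights, an intensity trend, Xist or a length correction (lowess, span 0.3; lengths from RefSeq, GRCm38.p6), or changed the threshold; the fit to protein-coding genes alone was added after seeing the data.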

Additional observations from a re-analysis of the deposited data

How the results depend on the processing

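Of the 10 genes, 3 to 4 passed when 1 array was left out, 3 with the replicate block, Xist as a covariate, the length trend removed or a threshold of 0.01, and 5 at a threshold of 0.10. Cxcl15, Sftpa1 and Napsa passed in all 18 settings at the 0.05 threshold, and Lamp3 in 10. The 18 are not independent checks. Each member had 1 probe set, so averaging probe sets left its fold change as it was. Repeated quantile scaling and median centring acted on arrays already at common quantiles. Xist was high on 1 array only, so its covariate acted much like leaving out control replicate 1. No call changed sign. Over all genes 6292 passed, against 2882 to 6155 with 1 array left out (2882 without control replicate 3, and 3141 if control replicate 1 was the one left out), 2827 with the Xist covariate and 2560 at 0.01, and the cause was not tested. With the replicate block 6082 genes passed and, of the 10, only Lamp3 changed its call. Deviations from the group mean of same-numbered arrays correlated at 0.06, −0.01 and 0.0038, within the −0.11 to 0.11 of differently numbered arrays. With so few arrays this cannot show whether same-numbered lungs shared a litter or run, which was not tested. Signal over background could not be judged, since the values carry no detection calls, and 3 lungs per group leave wide intervals for Sftpb, Sftpc, Sftpd and Abca3.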

Other observations

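Adgrf5 and Scd1 stand outside the naming rule and were picked after their values were seen. Adgrf5, an adhesion receptor of type 2 and endothelial cells that limits surfactant release and pool size, stood at −1.85 ± 0.36 (SE; limma, adjusted p = 0.00710, n = 3 per group) and passed with each array left out (−2.13 to −1.39). Scd1, a desaturase that is abundant in type 2 cells, stood at −1.62 ± 0.37 (SE; limma, adjusted p = 0.0137) and did not pass without control replicate 1 (−1.60, adjusted p = 0.0582) or 3 (−1.48, 0.0647). Fasn, in the same lipid pathway, rose.

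Genes of the transitional epithelial state, through which type 2 cells pass toward type 1 cells, rose at 4 of the 8 measured and fell at 1, so that 62.5% passed beside 46.9% of genes above the median level and 25.5% of all genes. Sfn rose by 1.17 ± 0.20, Krt19 by 1.19 ± 0.24 and Krt8 by 1.15 ± 0.22, while the integrin subunit Itgb6 stood at −1.49 ± 0.26 (SE; limma, adjusted p = 0.00446, 0.00864, 0.00706 and 0.00461). These 4 calls held with each array left out. Krt8 and Krt19 are also in the pan-epithelial list. The mean log2 level of the 8 genes lay between 5.55 and 5.72 on control arrays and between 5.93 and 6.13 on knockout arrays.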
